A study of Drosophila melanogaster with 64 samples.

Results

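The Obp56 cluster is a set of 9 odorant binding protein genes, Obp56a to Obp56i, that lie close together on chromosome arm 2R of Drosophila melanogaster. The members were chosen by name from a table of read counts, 9 of its 17752 genes, through the FlyBase identifier paired with each symbol, with no threshold on a measured value. The family itself was picked on its levels in these tissues, which were known from earlier results of the same libraries, so its levels are given as a description and its tests are not independent evidence. The study dissected the female reproductive tract (FRT) into the epithelial bursa, oviduct and seminal receptacle, the glandular spermathecae and parovaria, and the FRT-associated fat body. Expression was measured by RNA sequencing in 62 libraries of these 6 tissues taken before mating (unmated) and at 6 h and 24 h postmating, with 2 to 4 libraries in each of the 18 groups, and in 2 libraries of unmated whole females from which the FRT had been removed. All females were of the wild-type laboratory strain LHM and 3 to 8 days old. Each tissue library came from tissue pooled over many females and mixes all cells of that dissection, so more cells of a type and more RNA per cell cannot be told apart.

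Odorant binding proteins are small, secreted, soluble proteins that carry hydrophobic ligands. They are best known from the fluid of the olfactory and taste sensilla, where they surround the dendrites of chemosensory neurons, but many are made in organs with no known role in smell. Several Obp56 genes are linked to reproduction in flies. Obp56g is a seminal fluid protein made in the male ejaculatory bulb that is needed to form the mating plug, Obp56e, Obp56f and Obp56i have been found among seminal fluid proteins, and Obp56h affects male courtship. The bursa is the chamber that receives the ejaculate and in which the mating plug forms.

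The total count per library lay between 12177864 and 26860149, with a median of 24545400, and 26 and 38 libraries came from sequencing runs 1 and 2. In the bursa, spermathecae, and unmated and 24 h parovaria, each group held 2 libraries of each run, while the oviduct and fat body had a single library of run 1 or none in all but the unmated fat body. Levels are given as CPM, the usual unit of counts relative to library size, after scaling by the trimmed mean of M-values (TMM), unless plain CPM on total counts is named. A count of 3 in 1 tissue library corresponds to 0.112 plain CPM at the deepest and 0.246 plain CPM at the shallowest library, which covers counting error only. The labels do not say whether libraries of a group came from separate rearings, so the spread between them may in part be technical.

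The 9 genes span 171.0 kb of 2R in release 6 of the genome (BDGP6). Obp56a (FBgn0034468) opens the cluster at positions 19697723 to 19698508 on the plus strand, Obp56d (FBgn0034470) lies at 19702924 to 19703915 on the minus strand, and Obp56e (FBgn0034471) at 19712345 to 19712932 on the plus strand. Obp56a to Obp56f fill the first 16.3 kb, and Obp56g, Obp56h and Obp56i follow 85.8, 118 and 167 kb from the start of Obp56a. All have short spliced transcripts of 2 or 3 exon blocks, with 495 to 1026 bases of exon in all. Between the first and the last member the annotation places 119 other genes, of which 100 are copies of the 5S ribosomal RNA gene. The antisense RNA asRNA:CR44509 overlaps 505 bases of Obp56e on the other strand, and whether counting used the strand is not given in the sources used here.

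**Figure D1:**
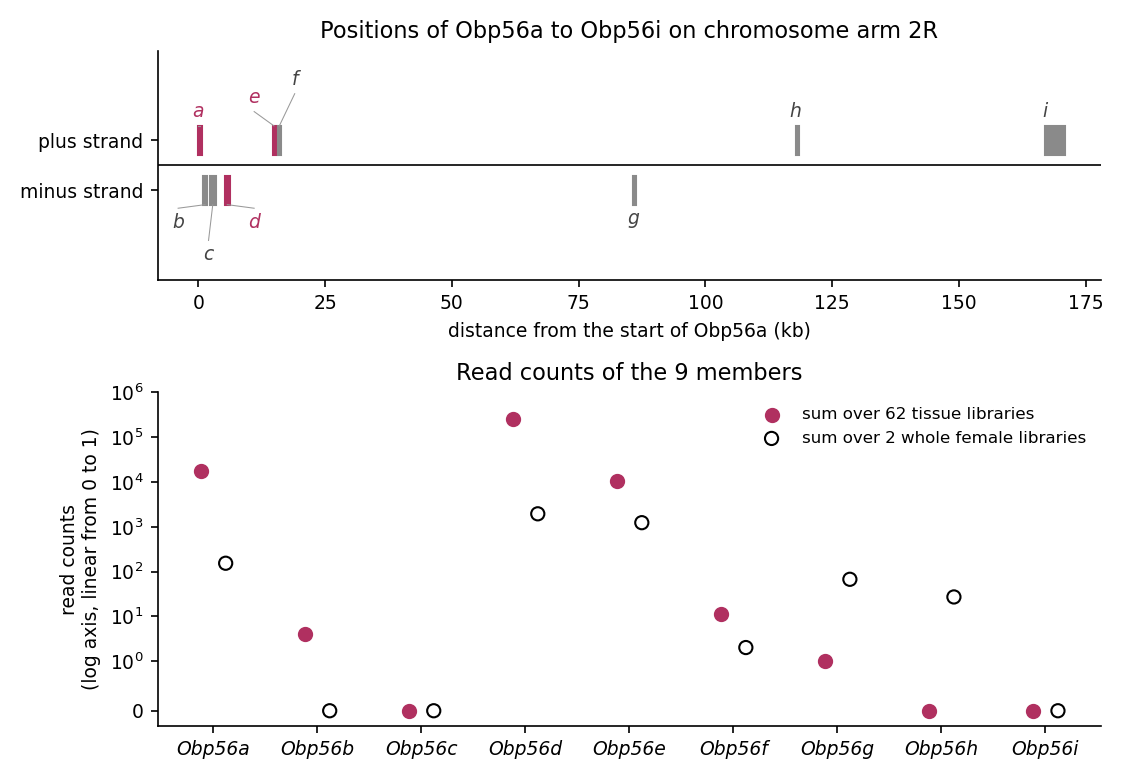
Top, position of the 9 genes by strand, in kb from the start of Obp56a, with the 3 genes expressed in the dissected tissues in red (boxes are drawn at least 0.6 kb wide). Bottom, read counts of each member summed over the 62 tissue libraries (filled) and the 2 whole female libraries (open), where Obp56d reached 249115 tissue counts and Obp56c and Obp56i had none in any library.

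Only 3 of the 9 members were expressed in the dissected tissues, where a gene was called expressed if it exceeded 2 plain CPM in at least 2 libraries of a tissue and time point, and 49.5% of all 17752 genes met that criterion. Obp56d was expressed in 18 of 18 groups, Obp56a in 14, and Obp56e in 3, which were the bursa at 6 h and 24 h and the seminal receptacle at 6 h. Summed over the 62 tissue libraries, Obp56d had 249115 counts, Obp56a 17166 and Obp56e 10357. The other 6 members were at or close to 0, although Obp56b, Obp56c and Obp56f sit within the same 16.3 kb as the expressed genes. Obp56b had 4 counts, 2 in each of 2 libraries of the parovaria at 24 h, and Obp56f had 11, in 2 libraries of the bursa at 6 h with 5 and 6 counts. Obp56g had a single count, in the bursa at 6 h, and Obp56c, Obp56h and Obp56i had 0 counts in all 62 libraries, which allows a level of up to 0.00196 plain CPM over these libraries together.

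The unmated whole female without its FRT gave a different picture. Obp56g had 1 count in all 62 tissue libraries, against 32 and 35 counts in the 2 whole female libraries, and Obp56h had 0 in the tissues, against 18 and 9 in the whole female. The highest library of Obp56e in unmated tissues was at 0.348 CPM, against 5.36 and 16.1 CPM in the whole female, where it had 382 and 851 counts. Obp56a, at 1.37 and 1.04 CPM in the whole female, and Obp56d, at 11.2 and 21.8 CPM there, were within the range of the tissues other than the bursa.

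Among unmated tissues, Obp56d was a bursa transcript. It had 103, 83.8, 198 and 159 CPM in the 4 unmated bursa libraries, 136 ± 52.3 CPM (SD, n = 4), and all of these lay above every other unmated library. The next levels were 21.4 ± 16.8 CPM in the oviduct (n = 3), 18.4 ± 10.3 CPM in the parovaria (n = 4), 17.6 ± 7.36 CPM in the seminal receptacle (n = 3), 13.1 ± 3.76 CPM in the fat body (n = 4) and 11.6 ± 5.67 CPM in the spermathecae (n = 4), beside 16.46 ± 7.499 CPM in the whole female (n = 2). No neighbours in this order below the bursa differed by more than their spread. The order below the bursa also moved with the scaling. In plain CPM the bursa had 180 CPM, and the whole female came next at 39.6 CPM, above the oviduct at 34.7 CPM. Its tissue specificity τ, which runs up to 1 for expression in a single tissue, was 0.879 over the 6 tissues and the whole female, and 0.934 in run 2 alone.

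Obp56a was low and broad in unmated females. It averaged 6.57 ± 4.82 CPM in the parovaria, 5.33 ± 1.01 CPM in the bursa (n = 4 each), 3.78 ± 4.69 CPM in the seminal receptacle and 3.52 ± 4.64 CPM in the oviduct (n = 3 each), 2.63 ± 2.52 CPM in the spermathecae and 2.47 ± 2.15 CPM in the fat body (n = 4 each), and 1.21 ± 0.236 CPM in the whole female (n = 2), for a τ of 0.519. In the seminal receptacle and oviduct the spread exceeded the mean, and levels differed between runs, as described further on, and also within run 2, with 0.805 and 4.64 CPM in the parovaria and 0.131 and 1.62 CPM in the oviduct. Within run 2 the bursa came first at 6.05 CPM, with 2.72 CPM in the parovaria and 0.501 to 1.08 CPM in the other tissues, and τ was 0.807. The order of Obp56a also moved with the scaling. In plain CPM over both runs the bursa came first at 7.16 CPM, with 5.95 CPM in the parovaria, and τ was 0.42. The whole female, at 3.12 plain CPM, was then above the spermathecae at 2.78 and the fat body at 1.28. Obp56e was all but absent from unmated tissues, with 0 counts in the oviduct, seminal receptacle, spermathecae and fat body, 6 counts in 1 parovaria library, and 7 and 9 counts in 2 of the 4 bursa libraries.

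After mating, the bursa held the largest mean levels of all 3 expressed members, and each of them was higher in every postmating bursa library than in every unmated one at both times. Of all genes tested in the bursa, 13.7% were higher in this way at 6 h and 3.9% at 24 h. Obp56a at 24 h was not highest in the bursa in both runs: in run 1 it had 44.6 and 33.6 CPM in the bursa, against 32.9 and 58.0 CPM in the parovaria. By edgeR's quasi-likelihood test and a Bonferroni adjustment over all 7983 genes tested in the bursa, Obp56e passed the threshold of 0.01 at 6 h and Obp56a passed it at 24 h. That is 1 of 3 members tested at 6 h, where 1.03% of all genes tested were called higher and 0.125% lower, and 1 of 3 at 24 h, where 0.125% were called higher and none (0%) lower. Obp56e entered the bursa tests through its mated groups alone, so a test over unmated could hardly give anything but a rise. Between 6 h and 24 h, where 0.0877% of genes were called higher at 24 h and 0.601% lower, 0 of 3 members passed.

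**Figure D2:**
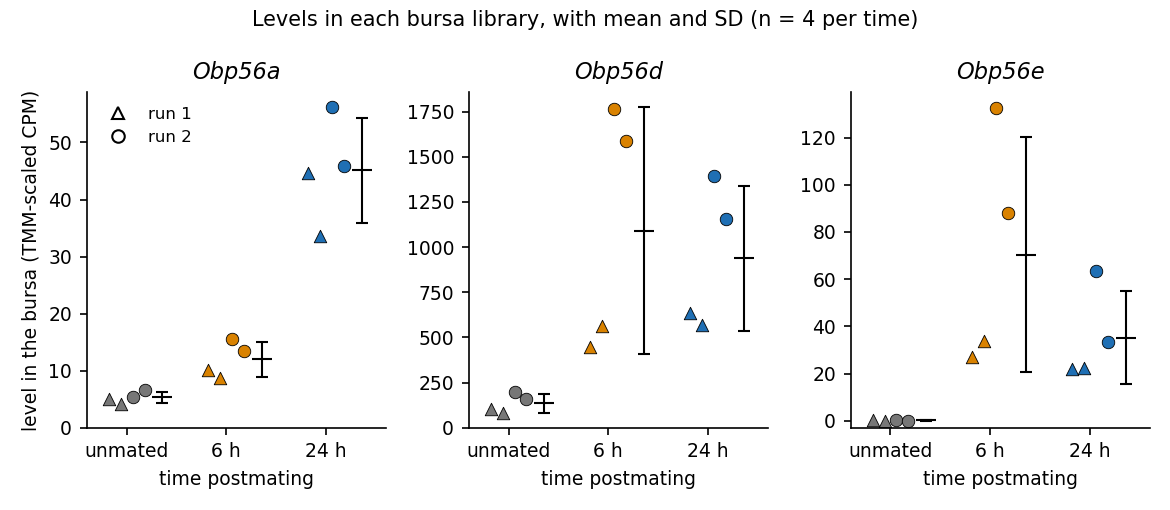
Level of Obp56a, Obp56d and Obp56e in each of the 12 bursa libraries (TMM-scaled CPM, linear axes with their own range), by time postmating, with triangles for run 1, circles for run 2 and the mean ± SD beside them. Obp56a was higher at each later time, with 45.1 CPM on average at 24 h, while Obp56d and Obp56e were already at 1091 and 70.4 CPM at 6 h and run 2 lay above run 1 for both.

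Obp56a was higher at each later time in the bursa. It was at 4.97, 4.24, 5.44 and 6.66 CPM in unmated females, 10.1, 8.81, 15.6 and 13.4 CPM at 6 h and 44.6, 33.6, 56.2 and 45.9 CPM at 24 h, and the 3 times did not overlap, where 6.41% of bursa genes were wholly higher at 24 h than at 6 h. The mean at 24 h was 8.46 times that of unmated bursae, and this was the same in both runs, at 8.49 in run 1 and 8.44 in run 2. Obp56a rose at 24 h over unmated, with a log2 fold change of 3.06 ± 0.25 (SE, adjusted p = 0.000383 by edgeR's quasi-likelihood test). At 6 h over unmated the log2 fold change was 1.17 ± 0.24 and did not pass (adjusted p = 1), and 24 h over 6 h gave 1.89 ± 0.24 (adjusted p = 0.0403), short of the threshold. Same-numbered bursa libraries, which also share a run, deviated together between these times. With the replicate number as a block the change from 6 h to 24 h passed edgeR's test, with a log2 fold change of 1.91 (adjusted p = 0.00141). It also passed edgeR's test with the run as covariate (adjusted p = 0.000455). The call at 24 h held in 12 of 12 fits that left out 1 bursa library. It was lost in run 1 alone (adjusted p = 0.0926), in run 2 alone (adjusted p = 0.0142), and in a single fit of all 6 tissues, which gave a log2 fold change of 3.07 (adjusted p = 1 in edgeR).

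Obp56d was the most abundant member per kb of exon at every time in the bursa. It had 103, 83.8, 198 and 159 CPM in unmated females, 445, 564, 1766 and 1590 CPM at 6 h and 634, 568.5, 1395 and 1155 CPM at 24 h, so that both postmating groups lay wholly above the unmated one and overlapped each other. The ratio of means over unmated was 8.02 at 6 h and 6.89 at 24 h, and within runs it was 5.40 and 9.39 at 6 h and 6.43 and 7.14 at 24 h in runs 1 and 2. Even so, Obp56d did not pass the test in the bursa: the log2 fold change was 3.02 ± 0.53 at 6 h (adjusted p = 0.757) and 2.77 ± 0.52 at 24 h (adjusted p = 1) by edgeR. Levels in run 2 were higher than in run 1 by 1.29 on the log2 scale. With the run as a covariate both changes passed edgeR's test, at adjusted p = 0.00016 and 0.000221, and DESeq2 without the run called both as well, at adjusted p = 5.59e-06 and 0.000128.

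The spread of Obp56d at 6 h moved with the scaling. The TMM factors of the bursa libraries at 6 h were 1.55 and 1.61 in run 1 against 0.673 and 0.719 in run 2, and the mitochondrial genome took 18.9% to 57.2% of their counts, against 32.3% to 38.4% in unmated bursae. In plain CPM the unmated libraries held 145, 116, 234 and 224 CPM of Obp56d, the 6 h libraries 692, 906, 1188 and 1142 CPM and the 24 h libraries 781, 649, 1016 and 1136 CPM. Scaling by total counts lowered the median log2 fold change of all bursa genes by 0.22 at 6 h and by 0.37 at 24 h. Under it the ratio of pooled Obp56d counts was 5.48 at 6 h and 4.999 at 24 h, with TMM 6.40 and 6.55.

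Obp56e changed from near absence. It had 7, 0, 9 and 0 counts in the unmated bursa, 1090, 1405, 2181 and 1528 counts at 6 h and 699, 660, 1126 and 803 counts at 24 h, which is 0.126 ± 0.154 CPM, 70.4 ± 49.7 CPM and 35.2 ± 19.6 CPM (SD, n = 4 each). The pooled level at 6 h was 453 times that of unmated bursae, and 388 times on total counts, and at 24 h the ratio was 269, or 205 on total counts. The ratio of means at 6 h was 318 in run 1 and 703 in run 2. Obp56e rose at 6 h over unmated, with a log2 fold change of 9.16 ± 0.98 (adjusted p = 0.00593 by edgeR). It was tested only because its mated groups met the expression criterion, so the direction was all but fixed in advance. At 24 h over unmated the log2 fold change was 8.13 ± 0.95 and stayed just short of the threshold (adjusted p = 0.0154), but it passed in 7 of 11 alternatives, among them the run as covariate (0.00032), total-count scaling (0.00138) and DESeq2 (9.57e-21), and 24 h over 6 h was -1.03 ± 0.65 (adjusted p = 1). Its call at 6 h held in only 4 of 12 fits that left out 1 library. It was lost without each of the 4 unmated libraries in turn, without replicate 4 at 6 h, and without replicates 1, 2 or 4 at 24 h, with adjusted p of 0.0119 to 0.0556, and it was lost in run 1 alone (0.259) and run 2 alone (0.0319). The antisense RNA that overlaps it had 10 counts in the unmated bursa, 40 at 6 h and 1 at 24 h, against 16, 6204 and 3288 counts of Obp56e in the same groups.

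Per kb of exon, the order of the members in the bursa differed with time. Unmated bursae held 148 CPM per kb of Obp56d, 9.74 of Obp56a and 0.237 of Obp56e. At 6 h the levels were 1183 CPM per kb of Obp56d, 132 of Obp56e and 21.9 of Obp56a, and the lowest library of Obp56e, at 50.6, was above the highest of Obp56a, at 28.6. At 24 h Obp56a, at 82.4 CPM per kb, and Obp56e, at 66.2, overlapped between libraries, below Obp56d at 1017.

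RNA of male origin and of sensory organs was looked at with marker lists. The bursa at 6 h held 1.61 to 10.4 plain CPM of 16 accessory gland transcripts in sum, against 2.16 to 5.59 CPM when unmated. A single gene of that list, Acp62F, was above 2 CPM on average at both times. Of the 16, 9 were at 0 in all 4 libraries at 6 h and 12 in all 4 when unmated. The sum of 3 ejaculatory duct and bulb transcripts was 0.0409 to 0.890 CPM at 6 h and 0 to 0.269 CPM in unmated females. The sum of 12 testis transcripts was 0 to 0.290 CPM at 6 h and 0.123 to 17.6 CPM in unmated bursae, with means of 10.1 CPM in run 1 and 0.186 CPM in run 2 of the unmated libraries. Of 10 chemosensory appendage markers, 8 averaged under 2 CPM in the bursa at each time, with Orco and a10 at 0, and the sum of 188 to 426 CPM at 6 h, against 68.3 to 116 CPM unmated, was almost wholly Obp69a and Obp83b, which are odorant binding proteins themselves. In the seminal receptacle the 16 accessory gland transcripts summed to 0.917 to 11.3 plain CPM at 6 h and 0.421 to 1.27 CPM when unmated. Of these 16, 2 had no count there at 6 h and 11 when unmated, against 13 and 11 in the oviduct. The part of male RNA and of sensory cells in the levels of Obp56a, Obp56d and Obp56e was not tested.

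**Figure D3:**
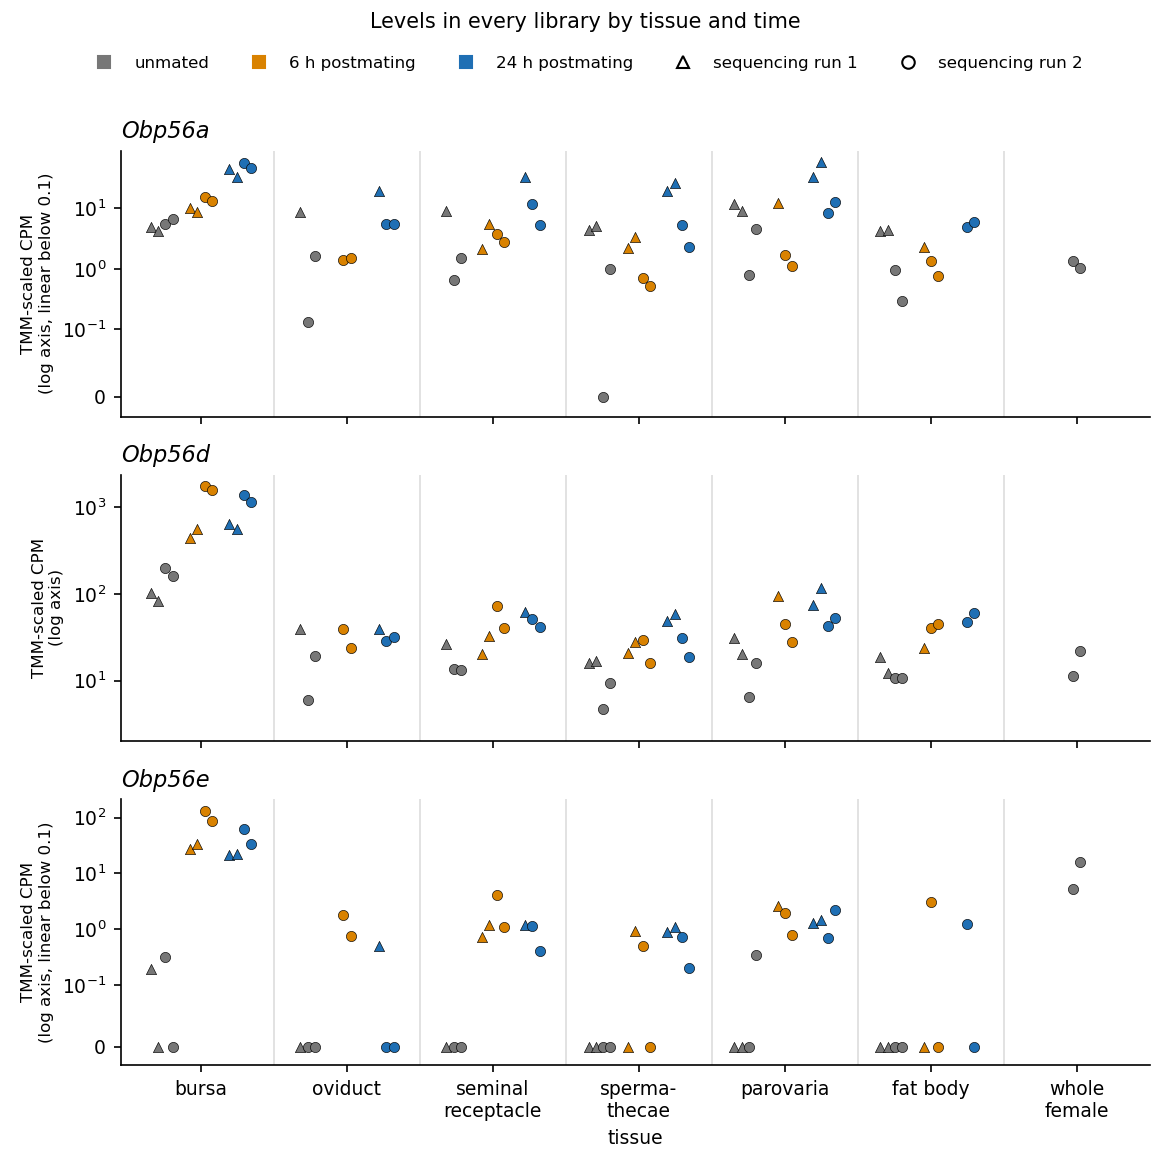
Level of Obp56a, Obp56d and Obp56e in every library (TMM-scaled CPM on log axes, linear near 0 for Obp56a and Obp56e), by tissue, with grey, orange and blue for unmated, 6 h and 24 h postmating, triangles for run 1 and circles for run 2. All Obp56d levels of the bursa lie above those of the other tissues at the same time, and most Obp56a levels outside the bursa are higher in run 1 than in run 2.

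Outside the bursa no member passed the Bonferroni threshold of edgeR's test, in 33 tests over 5 tissues. Obp56a and Obp56d could be tested in all of them and Obp56e in the seminal receptacle alone. Few genes of any kind were called there. At 6 h over unmated 0.157% of genes were higher and 0.131% lower in the spermathecae, and 0.0687% were higher in the parovaria, 0.0256% in the oviduct, 0.0246% in the seminal receptacle and 0.0176% in the fat body. At 24 h over unmated 0.0525% were higher and 0.0131% lower in the spermathecae and 0.0137% were higher in the parovaria, and at 24 h over 6 h 0.0656% were higher and 0.0918% lower in the spermathecae, 0.0275% lower in the parovaria and 0.0128% lower in the oviduct. The remaining comparisons of these tissues had 0%. Over all 6 tissues, 14 pairs of member and tissue were tested in each comparison, and Obp56e entered in the bursa and seminal receptacle through its mated groups alone. At an unadjusted p under 0.05, 8 pairs were higher and 0 lower at 6 h over unmated, 11 and 0 at 24 h over unmated, and 4 and 0 at 24 h over 6 h. Over all genes in the 6 tissues the share higher at that p was 10.1%, 4.35% and 8.75% in these comparisons. DESeq2 called 3, 5 and 1 of the 14 pairs, each higher, and 1.8%, 0.337% and 0.467% of all genes higher.

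Obp56d had higher means at 24 h than when unmated in each of these 5 tissues. In the fat body it had 18.6, 12.3, 10.7 and 10.6 CPM in unmated females, 23.5, 40.05 and 45.5 CPM at 6 h and 47.6 and 60.8 CPM at 24 h. None of these groups overlapped with another, as was so of 6.68% of fat body genes higher at 6 h over unmated, 14.6% at 24 h over unmated and 15% at 24 h over 6 h. In plain CPM the 6 h and 24 h groups overlapped, at 13.2, 17.2 and 14.6 CPM against 15.4 and 21.9 CPM. The 24 h libraries of the fat body were all of run 2. The log2 fold change at 24 h was 2.15 ± 0.30 (adjusted p = 0.207 by edgeR), while DESeq2 called it (adjusted p = 1.55e-05). The 24 h group also lay wholly above the unmated group in the parovaria (72.0 ± 33.3 and 18.4 ± 10.3 CPM, log2 fold change 1.95 ± 0.50), the spermathecae (39.4 ± 17.96 and 11.6 ± 5.67 CPM, 1.76 ± 0.41) and the seminal receptacle (51.1 ± 9.73 and 17.6 ± 7.36 CPM, 1.58 ± 0.46), with adjusted p = 1 for each in edgeR. Of all genes, 1.9% were wholly higher at 24 h in parovaria, 1.9% in spermathecae and 3.39% in seminal receptacles. Oviduct groups overlapped, with 33.3 ± 5.31 CPM at 24 h and 21.4 ± 16.8 CPM in unmated females. At 6 h the log2 fold changes over unmated were 0.55 to 1.52 in these 5 tissues, and only the fat body groups did not overlap.

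**Figure D4:**
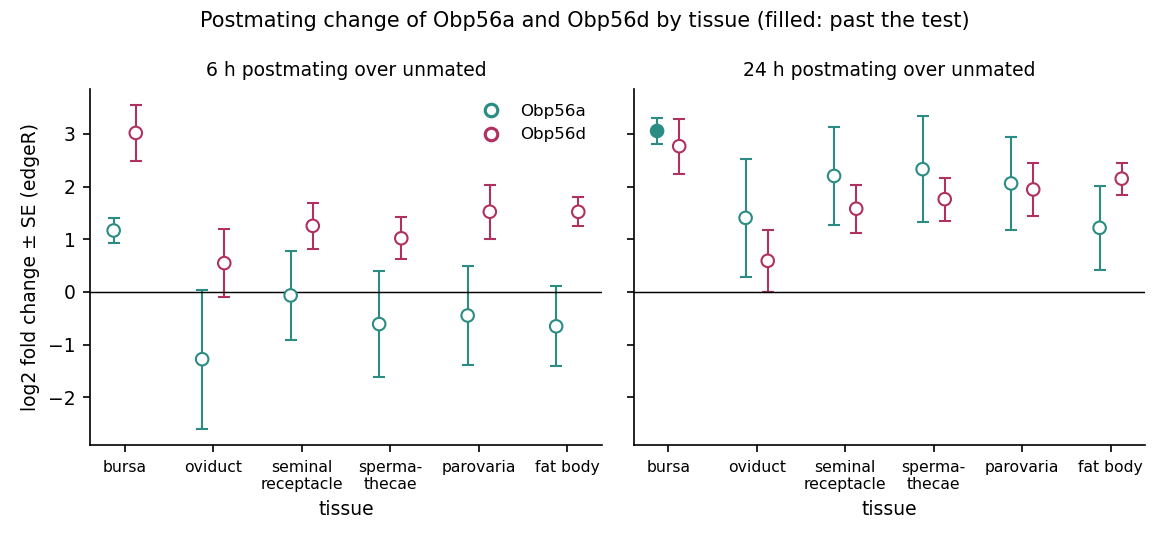
Log2 fold change ± SE of Obp56a (green) and Obp56d (red) over unmated females in each tissue, at 6 h (left) and 24 h (right) postmating, from edgeR fits per tissue, with filled points for an adjusted p of at most 0.01. At 24 h all 12 values are above 0 and that of Obp56a in the bursa, 3.06, alone is filled, while at 6 h Obp56a is above 0 in the bursa alone.

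At 6 h outside the bursa Obp56a was not called: its log2 fold changes over unmated were between -1.28 and -0.07, with standard errors of 0.76 to 1.32. With such errors, and with ratios that turned with the run as described further on, a rise could not be told from none. At 24 h the log2 fold changes were all positive, between 1.22 and 2.33, with standard errors of 0.79 to 1.12 and adjusted p = 1 in each tissue by edgeR. The 24 h means were 28.1 ± 22.6 CPM in the parovaria, 16.8 ± 14.6 CPM in the seminal receptacle, 13.4 ± 11.5 CPM in the spermathecae, 10.03 ± 7.92 CPM in the oviduct and 5.45 ± 0.779 CPM in the fat body. Only the fat body had groups that did not overlap, as was so of 14.6% of its genes higher at 24 h over unmated. There Obp56a had 4.90 and 6.00 CPM at 24 h against 4.22, 4.42, 0.965 and 0.290 CPM in unmated females. The 24 h libraries were both of run 2. In plain CPM these groups overlapped, at 1.58 and 2.16 CPM against 2.27, 2.39, 0.325 and 0.122 CPM. Scaling by total counts shifted the median log2 fold change of all fat body genes by -0.53 in this comparison.

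The sequencing runs separated Obp56a in most groups of these tissues that held both runs. In the parovaria at 24 h it had 32.9 and 58.0 CPM in run 1 and 8.46 and 13.0 CPM in run 2, and in unmated spermathecae 4.35 and 5.18 CPM in run 1 and 0 and 1.00 CPM in run 2. The runs interleaved in the seminal receptacle at 6 h, with 2.16 and 5.51 CPM in run 1 and 3.84 and 2.83 CPM in run 2. The fitted difference of run 2 minus run 1 was -2.60 on the log2 scale in the oviduct, -2.58 for spermathecae, -2.25 for parovaria, -2.06 in the fat body and -1.603 in the seminal receptacle, but 0.50 in the bursa. None passed the Bonferroni threshold of edgeR's test (adjusted p of 0.895 to 1), where 0% to 0.0656% of genes did. Within runs, the 24 h mean of Obp56a was 4.37 times the unmated mean in run 1 and 3.94 times in run 2 in the parovaria, 4.81 and 7.64 times for spermathecae, 3.63 and 7.95 times in the seminal receptacle and 2.18 and 6.25 times in the oviduct, and 8.68 times in run 2 of the fat body. At 6 h the ratio to unmated turned with the run in the seminal receptacle, at 0.418 in run 1 and 3.07 in run 2, the spermathecae, at 0.588 and 1.22, the fat body, at 0.529 and 1.68, and the parovaria, at 1.18 and 0.518. In the oviduct, where all 6 h libraries were of run 2, this ratio was 1.69 within run 2. The unmated oviduct libraries had 8.81 CPM in run 1 and 0.131 and 1.62 CPM in run 2. Eggshell and germline transcripts, in sum over 14 genes, were also higher in run 1 in unmated tissues, with 22.7 and 5.79 plain CPM in runs 1 and 2 of the parovaria, 16.8 and 6.15 for spermathecae, 117 and 46.6 for the oviduct, 76.5 and 58.6 for the seminal receptacle and 5.05 and 1.32 for the fat body. In the unmated bursa, where Obp56a was the higher in run 2, they had 125 and 54.5 plain CPM. A single gene of the list, grk, gave 79.5 of 89.6 plain CPM in the unmated bursa. It gave 59.5 of 64.6 in the seminal receptacle, 44.9 of 69.9 in the oviduct, 4.31 of 11.5 in the spermathecae and 4.09 of 14.3 in the parovaria. In the whole female, which kept its ovaries, grk had 12.5 of 12757 plain CPM, so in the epithelial tissues the sum says little about ovary RNA. The run difference was not particular to this list. Muscle transcripts, in sum over 12 genes, were higher in run 1 in each unmated tissue. They had 1742 and 1132 plain CPM in runs 1 and 2 of the parovaria, 1239 and 952 for spermathecae and 157 and 94.7 for the fat body. Fat body transcripts went both ways, with 28146 and 16027 plain CPM in the parovaria and 18826 and 27492 in the seminal receptacle. The part of these lists in the level of Obp56a was not tested.

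Obp56e appeared at low level in mated females in each tissue. In the seminal receptacle it had 0 counts in each of 3 unmated libraries, 38, 59, 129 and 35 counts at 6 h, and 57, 17 and 8 counts at 24 h. Against a floor of 3 counts over the unmated group, that is at least 58.6-fold higher at 6 h and at least 36.4-fold higher at 24 h, but neither passed edgeR's test (adjusted p = 1). DESeq2 called both, at adjusted p = 9.47e-06 and 0.0012. The oviduct had 59 and 23 counts at 6 h against 0 in each unmated library, at least 50.8-fold higher, and 19, 0 and 0 counts at 24 h, at least 7.92-fold higher. The spermathecae had 0, 32, 10 and 0 counts at 6 h and 32, 38, 14 and 5 counts at 24 h, against 0 in each unmated library, at least 13.3-fold and 26.8-fold higher, and only the 24 h libraries all held a count. In the parovaria 117 counts at 6 h and 109 at 24 h stood against 6 in unmated females, a pooled ratio of 27.9 and 19.6. In the fat body the only counts were 32 in 1 of 3 libraries at 6 h and 10 in 1 of 2 at 24 h. The antisense RNA asRNA:CR44509, which overlaps Obp56e, had its highest group mean in the fat body at 6 h. That mean was 1.24 CPM, against 1.02 CPM of Obp56e in the same group. The part of the antisense RNA in these low counts was not tested.

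Set against the bursa at the same time in plain CPM, the levels of Obp56e and Obp56d were small. At 6 h, Obp56e of the seminal receptacle was 4.22% of that of the bursa, of the oviduct 2.71%, of the parovaria 2.43%, of the fat body 0.705% and of the spermathecae 0.667%. For Obp56d the shares at 6 h were 6.31%, 4.19%, 4.94%, 1.53% and 2.59% in the same order of tissues. The summed level of the 10 most abundant bursa-specific transcripts of these libraries, such as Obp57a and Pcp, was 13.9%, 6.35%, 1.99%, 0.330% and 3.07% of the bursa in those tissues. Those 10 were drawn from the same unmated data by τ, with the Obp56 genes left out. In the seminal receptacle at 6 h most of their sum of 1759 CPM was CG3604. That gene had 1119 CPM there against 792 CPM in the bursa. Obp57a had 139 CPM there against 3740 CPM in the bursa, and Pcp 194 against 3078 CPM. Obp56a at 24 h reached 61.9% of the bursa level for the seminal receptacle, 54.4% for parovaria, 38.5% for spermathecae, 31.3% for the oviduct and 4.18% for the fat body. These shares differed with the run, with 131% in the single run 1 library and 25.7% in run 2 of the seminal receptacle, and 92.3% and 13.3% in runs 1 and 2 of the parovaria. The part of bursa RNA in the other dissections was not tested for these members.

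Whether the postmating change differed between tissues was tested with interaction terms in 1 edgeR fit of all tissue libraries over 8793 genes. Of 90 differences, 45 at each time, 0 of the members' passed a Bonferroni-adjusted p of 0.01, against 0% to 1.08% of all genes in the comparisons of the bursa with another tissue. Where Obp56e had 0 counts in the unmated groups of both tissues, its difference could not be estimated and could not pass. At 6 h its standard error was 1705 for oviduct minus seminal receptacle and 8153 for seminal receptacle minus spermathecae. For Obp56d the change in the bursa exceeded that in the other tissues by 1.38 to 2.34 on the log2 scale at 6 h, with standard errors of 0.68 to 0.81, and 4 of these 5 differences had an unadjusted p under 0.05, where 6.51% of all differences between the bursa and another tissue were higher at that p. At 24 h they were 0.69 to 2.17, with standard errors of 0.68 to 0.77, and 1 of 5 was under 0.05, where 3.22% of all such differences were. For Obp56a at 24 h the differences were 0.75 to 1.93, with standard errors of 1.23 to 1.48, and 0 of 5 were under 0.05. In all 90 tests 4 differences at 6 h and 1 at 24 h had an unadjusted p under 0.05.

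The genes whose pattern over the 19 group means was most like that of each expressed member were named by the correlation of log2(CPM + 0.5), given as a description because the groups share tissues and runs. For Obp56d they were Obp69a (r = 0.94), another odorant binding protein, and the uncharacterised CG42834 (r = 0.94) and CG31207 (r = 0.93). Obp69a averaged 49.8, 331 and 191 CPM in unmated, 6 h and 24 h bursae and at most 4.25 CPM in any group of the other tissues. For Obp56e they were CG13177 (r = 0.87), GstE14 (r = 0.86), a glutathione S-transferase known from ecdysteroid synthesis, and the fatty acid elongase Elovl7 (r = 0.84), and for Obp56a the Osiris family genes Osi6 (r = 0.78) and Osi7 (r = 0.76) and the homeotic gene Antp (r = 0.73). Osi6 was at 0 in unmated and 6 h bursae and at 3.18 CPM at 24 h. Among the members, r was 0.78 between Obp56d and Obp56e, 0.66 between Obp56a and Obp56d and 0.37 between Obp56a and Obp56e.

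Most genes lying among the members were not expressed. Of the 121 genes between the members or next to the cluster, 70 had 0 counts in all 62 tissue libraries. A single one was expressed by the criterion above, Toll-7, a Toll family receptor, in unmated and 24 h seminal receptacles, with log2 fold changes of -0.73 ± 0.44 at 6 h and -0.40 ± 0.48 at 24 h over unmated (adjusted p = 1 in edgeR). Or56a, an odorant receptor that responds to geosmin, had 0 counts in all libraries.

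Elsewhere in the family, 43 of 44 other odorant binding protein genes were found in the table and 7 to 12 of them were expressed enough to be tested, depending on the tissue. In the bursa 12 were tested and 0 passed edgeR's test after Bonferroni adjustment at 6 h, at 24 h or between them. Between 6 h and 24 h 1 was higher and 1 lower at an unadjusted p under 0.05, where 12.4% and 15.2% of all genes were. At an unadjusted p under 0.05, 2 of these 12 were higher and 0 lower at 6 h over unmated. Of all 7983 genes, 20% were higher and 19.4% lower at that p. At 24 h over unmated 3 of the 12 were higher and 0 lower, where 4.1% of all genes were higher and 3.47% lower. DESeq2 called 2 higher at 6 h and 1 higher at 24 h, where it called 5.85% and 0.676% of all genes higher. Their median log2 fold change in the bursa was 0.41 at 6 h and 0.44 at 24 h, against -0.02 and -0.04 over all genes tested. In the other 5 tissues 0 passed in any comparison, with at most 2 higher and at most 1 lower at an unadjusted p under 0.05 in a comparison. Of all genes, 2.31% to 14.3% were higher and 0.626% to 11.9% lower at that p in these comparisons. DESeq2 called a single one, higher at 24 h over 6 h in the oviduct, where it called 0.41% of all genes higher.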

How the data were processed

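Libraries of 6 tissues at 3 times and of the whole female were sequenced. Adapters and poor reads were removed at the sequencing centre, and the authors aligned the rest to the FlyBase r6.21 genome; the submitters' notes name HISAT2 2.1.0 and StringTie. The deposited table holds raw read counts of 17752 genes in 64 libraries, and 17624 identifiers (99.28%) had a symbol. A group, but no single sample, could be given to 14 columns. Tissues were fitted one by one in edgeR 4.0.16 (quasi-likelihood, TMM, R 4.3.3) on genes over 2 CPM in 2 or more libraries of any time, with calls at a Bonferroni-adjusted p of at most 0.01. Standard errors came from the quasi-likelihood F. Alternatives were DESeq2 1.42.0, the run as covariate, each run alone, other scalings and filters, and leaving out each library. Tests were checked on simulated counts. Named genes are the members, the 3 most like each expressed member, genes between or beside them, and list genes. Members and lists were chosen with earlier results of these data known. Same-numbered libraries of 24 h and 6 h deviated together (every r over 0.1) in the bursa (0.143 to 0.749) and spermathecae (0.245 to 0.696), and these numbers, which also share a run, were taken as pairs. Other comparisons had r from -0.205 upwards and at least 1 pair under 0.1, or a single pair.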

Additional observations from a re-analysis of the deposited data

Results flagged for a closer look

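Obp56e in the seminal receptacle at 6 h had 1 library far above the other 3, at 4.16 CPM against 0.733, 1.102 and 1.21 CPM, a gap of 0.862 of the group's range. In the unmated parovaria 1 library held 0.348 CPM of Obp56e and the other 3 were at 0, a gap of 1.0 of the range. These were 2 of 28 groups of 4 libraries looked at in this way, and chance is expected to mark about 1 in 20. That rate does not hold for groups near 0, where a count in 1 library alone gives a gap of 1.0 whatever its size.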

How the results depend on the processing

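The count of member and tissue pairs called was 1 at 6 h over unmated. It was 3 with Benjamini-Hochberg adjustment or DESeq2, 2 with the run as covariate, the replicate block or 1 fit of all tissues, 0 in run 1 or run 2 alone, and 0 to 1 when a library was left out. At 24 h over unmated the count was 1. It was 5 with DESeq2, 3 with the run as covariate or the replicate block, 2 with Benjamini-Hochberg adjustment, all genes or total-count scaling, and 0 in either run alone. At 24 h over 6 h it was 0, and 1, Obp56a in the bursa, with Benjamini-Hochberg adjustment, the run as covariate, DESeq2 or the replicate block. Run 1 alone also gave 1, but this was Obp56a in the seminal receptacle, where 24 h is a lone library assumed to vary like the others. Total-count scaling and run 1 alone were chosen after seeing the data. The labels state no pairing, and shared replicate numbers were taken as pairs only for 24 h with 6 h libraries in the bursa and spermathecae. The block could be fitted in the bursa and spermathecae and at 24 h over unmated in the oviduct and parovaria. Its counts over unmated thus rest on numbers not taken as pairs. Over the libraries of the other times, each library correlated best with its own number in 9 of 12 cases in the bursa and 8 of 12 in the spermathecae. Same-numbered libraries also share a run, whose part in this was not tested. The difference of the change between tissues gave 0 calls in each setting run, where some differences of Obp56e could not be estimated.

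Log2 fold changes turned sign only where they were not called. For Obp56a at 6 h over unmated the oviduct gave 0.46 with the run as covariate and 0.82 in run 2, the seminal receptacle 0.33 and 1.602, the spermathecae 0.32 in run 2 and the parovaria 0.15 in run 1. Leaving out 1 library gave -1.80 to 0.82 in the oviduct (0.82 without unmated replicate 1), -0.56 to 1.73 in the seminal receptacle (1.73 without the unmated library of run 1) and -2.25 to 0.0063 in the parovaria. For Obp56d at 24 h over 6 h the bursa gave 0.23 in run 1 and -0.52 to 0.095 without 1 library (0.095 without replicate 3 at 6 h), the oviduct -0.27 with the covariate, -0.095 in run 2, -0.013 in 1 fit of all tissues and -0.24 to 0.39 without 1 library, and the seminal receptacle -0.27 in run 2. The difference for Obp56a at 24 h between bursa and fat body was -0.10 in run 2. The cause was not tested. Of the log2 fold changes, 378 alternatives and 410 fits without 1 library kept direction and side of the threshold. Genes listed as most like Obp56a shared 0 of 3 with those by Spearman correlation, and 1 of 3 for Obp56d and Obp56e.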
